A study of Mus musculus with 4 samples.

Results

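The 35 genes described here mark endothelial cells, which line the blood vessels of the heart, and were taken by gene symbol from the deposited tables. Each of the 35 symbols was found, among 22322 genes in all. The libraries were labelled cardiomyocytes, the muscle cells of the heart, so that these genes belong to another cell type than the one sought. The study sequenced RNA in duplicate from 2 sham-operated mice and from 2 mice given transverse aortic constriction (TAC), surgery in which a narrowed aorta makes the left ventricle pump against a higher pressure. Per the methods, the mice were male and 2 months old at surgery, and their strain is not stated. The methods give 14 weeks as the time of the last echocardiography after surgery and also call the mice of the hearts used 14 weeks old. Hearts of both groups were dissociated on a Langendorff system, where enzyme solution flows through the coronary vessels, and RNA came from about 1 of 4 portions of the myocytes of 1 heart. No sort for muscle cells or against vessel cells is described.

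Capillary endothelial cells lie beside nearly every cardiomyocyte and hand over oxygen and fatty acids. They hold together through VE-cadherin and tight junctions, carry a glycocalyx of sialomucins, sense flow and growth factors through receptors such as those for sphingosine 1-phosphate, apelin and the VEGF family, and make nitric oxide. Their identity depends on transcription factors of the ETS and SOX families, and fatty acids leave the capillary through lipoprotein lipase held by Gpihbp1 and through the fatty acid binding protein Fabp4. The libraries are bulk RNA, and levels are scaled to library size. Fewer endothelial cells carried along in the preparation, less RNA per endothelial cell and more RNA from other cells therefore cannot be told apart.

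Sequences from RefSeq (GRCm38.p6) are shown first, because ETS factors are among the members and nearly all members lay on 1 side of 0. A promoter window, taken here as the 250 bases before the gene's start, was matched for 14 of the 35 members. The windows of Rgcc, Egfl7 and Ly6c1, which were called lower in TAC, and of Robo4, which was close to equal between the groups, are given below in the direction of the gene, with AGGAAG or CGGAAG, the ETS-type letters searched on both strands, in capitals. They lie at chr14:79301636-79301885 (minus strand) for Rgcc, chr2:26580833-26581082 (plus strand) for Egfl7, chr15:75048838-75049087 (minus strand) for Ly6c1 and chr9:37401722-37401971 (plus strand) for Robo4.
Rgcc: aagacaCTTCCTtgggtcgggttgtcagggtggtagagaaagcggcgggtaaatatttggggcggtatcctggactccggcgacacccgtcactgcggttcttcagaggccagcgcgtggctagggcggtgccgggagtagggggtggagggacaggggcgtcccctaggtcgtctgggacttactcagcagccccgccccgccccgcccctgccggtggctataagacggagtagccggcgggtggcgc
Egfl7: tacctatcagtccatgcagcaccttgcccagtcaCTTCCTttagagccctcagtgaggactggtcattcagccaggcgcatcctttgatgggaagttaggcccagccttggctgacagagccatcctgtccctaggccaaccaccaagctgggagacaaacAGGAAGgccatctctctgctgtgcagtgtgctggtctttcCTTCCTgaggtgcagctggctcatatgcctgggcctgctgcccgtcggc
Ly6c1: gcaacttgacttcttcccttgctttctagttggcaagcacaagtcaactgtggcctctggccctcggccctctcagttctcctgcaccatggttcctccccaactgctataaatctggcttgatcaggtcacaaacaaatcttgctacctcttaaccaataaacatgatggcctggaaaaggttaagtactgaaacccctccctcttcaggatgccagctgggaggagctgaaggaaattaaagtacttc
Robo4: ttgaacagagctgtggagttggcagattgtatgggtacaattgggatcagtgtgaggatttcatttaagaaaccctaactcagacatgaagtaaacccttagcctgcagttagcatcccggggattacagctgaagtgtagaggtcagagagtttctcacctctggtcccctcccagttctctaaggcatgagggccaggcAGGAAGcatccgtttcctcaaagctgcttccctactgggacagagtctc
The Egfl7 window, 1 of 3 in RefSeq for this gene and set on a start 1069 bases from that of the GENCODE gene, held 3 matches, the Rgcc and Robo4 windows held 1 each, and the Ly6c1 window held 0. The letters were found in 6 of the 14 member windows (42.9%) and in 39.2% of 32851 windows of the same length. The SOX-type letters ACAAT were found in 4 of 14 (28.6%, against 27.7% of all windows) and the GATA-type letters AGATAA in 2 of 14 (14.3%, against 10.0%). The mean number of ETS-type matches per window was 0.79 in the member windows and 0.54 in all windows. A match is a description of the letters, not of binding.

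Egfl7 also hosts miR-126a, an abundant miRNA of endothelial cells. The mature 3′ arm, shown because its host gene was among the members that fell, lies at chr2:26591402-26591423 (plus strand), and its seed, bases 2 to 8, is in capitals.
mmu-miR-126a-3p: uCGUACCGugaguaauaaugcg
Its hairpin lies in an intron of 8 and in an exon of 1 of the 19 annotated Egfl7 transcripts. Per the methods, the small RNA data of the study were scaled on this miRNA together with miR-19b-3p, both described there as unaltered and checked by qPCR, and those data are not analysed here.

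Each of the 35 genes had counts in each library, from 31 counts upward, and each passed the low-count filter. Levels per length are given as FPKM, fragments per kilobase of transcript scaled to library size, as deposited. The highest mean FPKM over the 4 libraries was that of Fabp4 at 134, followed by Ly6c1 at 46.5, Cav1 at 38.9 and Cdh5 at 21.4. Fabp4 and Cav1 are also made by other cells, so that a high level of these is less particular to endothelium than one of Cdh5. Tal1, a transcription factor shared with blood cells, was lowest at 0.408 FPKM. The median of the members was 5.30 FPKM, against 3220 FPKM for 10 cardiomyocyte genes. No library of undissociated heart was at hand, so how far the preparation was enriched for cardiomyocytes was not tested. The 4 libraries held 24237777 to 32118323 counts, with a common biological coefficient of variation of 10.5%.

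After TAC, endothelial genes were lower in most cases. Of the 35 members, 34 had a lower and 1 a higher fitted level in TAC, with a median log2 fold change of −0.61 (range −1.07 to 0.13) beside −0.01 over all 12499 genes tested. In the edgeR quasi-likelihood test, 6 members (Cdh5, Esam, Egfl7, Fabp4, Rgcc and Ly6c1) fell at a Benjamini-Hochberg adjusted p under 0.05 and 0 rose. Among all genes tested 2.43% were called lower. At an unadjusted p under 0.05, 24 members were lower, against a background of 14.0%, and in 26 members both TAC libraries lay below both sham libraries, against 30.3% of all genes tested. In the other 9 members the groups overlapped. The number of calls depended on single libraries: edgeR called 3 members without TAC 1, 7 without sham 1, 17 without sham 2 and 24 without TAC 2, each of them lower. Calls over all genes moved as well, from 626 to 301, 577, 746 and 1336 in the same order. DESeq2 called 12 members lower, where it called 4.30% of all genes lower.

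**Figure D1:**
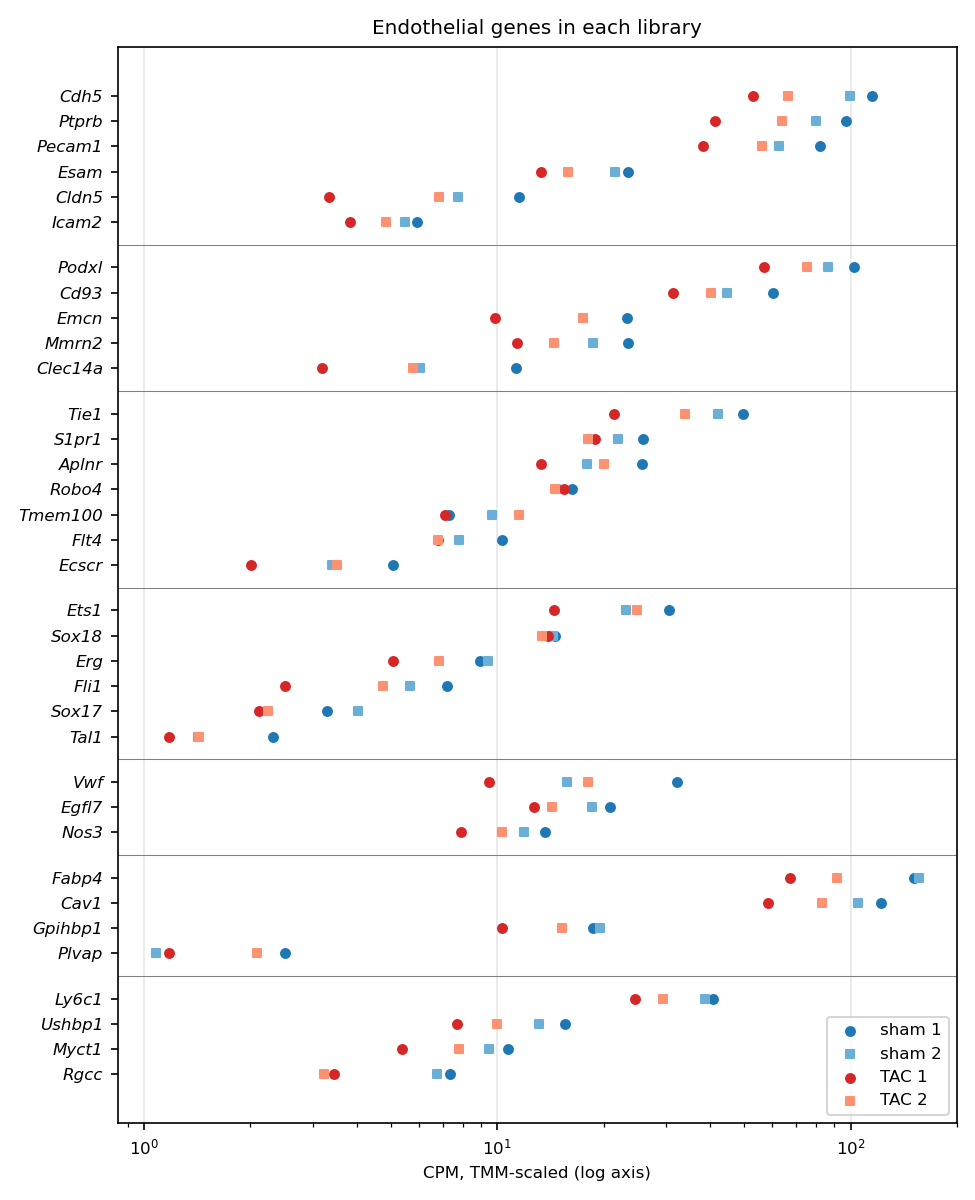
Level of each of the 35 endothelial genes, in CPM (counts scaled to a common library size by TMM factors, log axis), with 1 point per library and the genes grouped by role from junctions at the top to other genes at the bottom. TAC 1 was the lowest library in 30 genes and sham 1 the highest in 30.

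Values in single libraries are given below as CPM, counts scaled to a common library size, with replicate 1 before replicate 2 in each group. The junction genes are those that join endothelial cells to each other. All 6 were lower, with a median of −0.69 and 2 calls. Both TAC libraries lay below both sham libraries in each, an order seen in 30.3% of all genes tested. Cdh5, which encodes VE-cadherin, the adhesion molecule of endothelial adherens junctions (chr8:104101625-104144511, plus strand), stood at 115 and 99.9 CPM in sham and 52.9 and 66.4 CPM in TAC. The groups did not overlap, and its mean fell by 44.5%, from 107 ± 10.5 to 59.6 ± 9.55 CPM (SD, n = 2 each), with a log2 fold change of −0.85 ± 0.12 (± SE; by edgeR, adjusted p = 0.0149). The study itself also named Cdh5 as changed, with total-count scaling and its own fold change cut-off. It used these same samples, so this is no separate support. Esam, an adhesion molecule of endothelial tight junctions and platelets (chr9:37528078-37538319, plus strand), gave 23.4 and 21.6 CPM in sham 1 and 2 and 13.3 and 15.8 in TAC 1 and 2. Both TAC libraries were below both sham libraries, TAC 1 by more than TAC 2, and the log2 difference was −0.63 ± 0.12 (edgeR adjusted p = 0.0339).

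The other junction genes were not called. Pecam1 (CD31), the adhesion protein most often used to mark endothelium and singled out here for that reason after its values were seen, stood at 81.9 and 62.7 CPM in sham and 38.2 and 56.2 CPM in TAC. TAC 2 lay close under sham 2, while TAC 1 lay far below, and the log2 fold change of −0.62 ± 0.19 did not pass (edgeR adjusted p = 0.0941). Ptprb, the phosphatase VE-PTP that acts on VE-cadherin and the Tek receptor, had a log2 fold change of −0.75 and Cldn5, the main claudin of endothelial tight junctions, one of −0.93, with a wide 95% interval of −1.70 to −0.17. Icam2, an adhesion molecule for leukocytes, had one of −0.40.

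Of the surface glycoproteins and their ligand, 5 of 5 were lower, 0 were called and the median was −0.58. Clec14a, a lectin-like surface protein, had 1 of the 3 lowest log2 fold changes of all members. It stood at 11.3 and 6.05 CPM in sham and 3.19 and 5.77 CPM in TAC. The level in TAC 2 was nearly that of sham 2, and the fitted difference of −0.97 ± 0.35 on the log2 scale was not called (edgeR adjusted p = 0.135). Cd93, a relative of Clec14a, and Mmrn2 (multimerin-2), the matrix protein that both bind, had log2 fold changes of −0.55 and −0.71, the latter just outside the threshold (edgeR adjusted p = 0.0510). The sialomucins Podxl and Emcn had log2 fold changes of −0.52 and −0.58. The Emcn groups overlapped, because TAC 2 and sham 2 both stood at 17.5 CPM.

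Receptors and signalling proteins had the median nearest to 0 of the 7 role groups, whose differences were not tested. Of 7 members 6 were lower, 0 were called and the median was −0.39. In 3 of the 7 both TAC libraries lay below both sham libraries, beside 30.3% of all genes tested. Tie1, an orphan receptor that partners Tek, had the largest difference of the group at −0.73 ± 0.20 (edgeR adjusted p = 0.0735). The values of S1pr1, the receptor for sphingosine 1-phosphate, Aplnr, the apelin receptor, and Flt4, the receptor of VEGF-C that also marks lymphatic vessels, were −0.38, −0.39 and −0.41. Ecscr, a regulator of endothelial migration, was at −0.63 with an interval of −1.37 to 0.12.

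The other 2 genes of this group, Robo4 and Tmem100, had values near 0. Robo4, a receptor that stabilises vessel walls, stood at 16.3 and 14.7 CPM in sham and 15.4 and 14.6 CPM in TAC. All 4 libraries were close together, and the log2 fold change was −0.05 ± 0.11, with a 95% interval of −0.31 to 0.21 that did not reach the median of the members. Tmem100, a membrane protein induced by BMP signalling in endothelium, was the member with a higher fitted level in TAC, at 7.30 and 9.66 CPM in sham and 7.10 and 11.5 CPM in TAC. Its libraries were interleaved, the log2 difference was 0.13 ± 0.24 (edgeR adjusted p = 0.768), and it was lower instead under 5 of 11 alternative settings, total-count scaling among them, where all 35 members were lower.

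All 6 transcription factors were lower and 0 were called, with a median of −0.57. The ETS factors Erg, Fli1 and Ets1, which drive endothelial genes, had log2 fold changes of −0.63, −0.84 and −0.45, with overlap of the groups for Ets1. Tal1, a factor of blood and endothelial development counted 33 to 73 times per library, was at −0.52 with overlap. The SOX factors differed from each other. Sox17, which acts in arterial endothelium, was at −0.74 ± 0.23 (edgeR adjusted p = 0.0982), with the reservation that Gm37587, on the opposite strand, overlaps 16.8% of its exon bases. Sox18, which acts in vascular and lymphatic development, stood at 14.6 and 14.4 CPM in sham and 13.9 and 13.4 CPM in TAC. Both TAC libraries were below both sham libraries, but by little, at −0.09 ± 0.11 with an interval of −0.34 to 0.16. The difference between Sox17 and Sox18 itself was not tested.

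Of the 3 genes for secreted factors and nitric oxide synthesis, Egfl7 was called. Egfl7, a secreted protein that guides vessel assembly (chr2:26580014-26593120, plus strand), stood at 20.8 and 18.5 CPM in sham and 12.7 and 14.3 CPM in TAC. Both TAC libraries were below both sham libraries, at a log2 difference of −0.54 ± 0.12 (edgeR adjusted p = 0.0477), the weakest of the 6 calls, lost without sham 1, without TAC 1 and with a replicate block. Gm20532, annotated on the same strand, overlaps 7.37% of its exon bases. Nos3, the endothelial nitric oxide synthase, was at −0.49, but an antisense gene, Gm15587, overlaps 25.2% of its exon bases, and the sources used here do not say whether counting used strand. Vwf, the clotting factor of endothelium and platelets, is given as the member with the second largest gap between the sham libraries, chosen after its values were seen. It stood at 32.3 and 15.7 CPM in sham and 9.47 and 18.1 CPM in TAC, so that TAC 2 was above sham 2, and the fitted log2 difference of −0.81 ± 0.37 was not called (edgeR adjusted p = 0.207).

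Genes of capillary lipid handling and caveolae were lower in 4 of 4 cases, with a median of −0.64 and 1 call. Fabp4 (chr3:10204088-10208576, minus strand), which carries fatty acids inside capillary endothelial cells and fat cells, stood at 151 and 156 CPM in sham and 67.5 and 91.7 CPM in TAC. It fell by 48.2%, from 154 ± 3.54 to 79.6 ± 17.1 CPM (SD, n = 2 each), a log2 difference of −0.95 ± 0.13 on the log2 scale (edgeR adjusted p = 0.0148). Fat cells were not seen by their defining genes: Adipoq, Plin1 and Lep had 0 counts in all 4 libraries and Cidec had 1. Gpihbp1, which brings lipoprotein lipase to the capillary lumen, was at −0.59 ± 0.18 (edgeR adjusted p = 0.0914), with both TAC libraries below both sham libraries.

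Cav1, the coat protein of caveolae (chr6:17306335-17341452, plus strand), stood at 122 and 105 CPM in sham and 58.2 and 82.9 CPM in TAC. The groups did not overlap, and the log2 fold change of −0.69 ± 0.16 was just outside the threshold (edgeR adjusted p = 0.0529). With total-count scaling, edgeR called 8 members lower, adding Cav1 and Mmrn2, where 3.38% of all genes were called lower and the median of all genes moved to −0.20. Plvap, the diaphragm protein of fenestrae and caveolae, was low at 2.50 and 1.08 CPM in sham and 1.18 and 2.09 CPM in TAC. Its replicates differed more than its groups, and the log2 fold change of −0.15 had an interval of −1.23 to 0.94.

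The remaining 4 genes were lower, with a median of −0.66 and 2 calls. In each, both TAC libraries lay below both sham libraries, an order seen in 30.3% of all genes tested. Rgcc, a regulator of the cell cycle with high levels in capillary endothelium (chr14:79288756-79301645, minus strand), had the lowest log2 fold change of all members. It stood at 7.33 and 6.74 CPM in sham and 3.44 and 3.23 CPM in TAC. Its replicates were close to each other in both groups, and it fell by 52.5%, or −1.07 ± 0.17 on the log2 scale (edgeR adjusted p = 0.0204). Ly6c1, a surface protein of mouse endothelium and monocytes (chr15:75044018-75048830, minus strand), stood at 40.7 and 38.7 CPM in sham and 24.6 and 29.5 CPM in TAC. It fell at a log2 difference of −0.55 ± 0.11 (edgeR adjusted p = 0.0348), with the reservation that Ly6c2 is a close copy and that the sources used here do not say how shared fragments were divided. Ushbp1 and Myct1 were at −0.70 and −0.61 and were not called.

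**Figure D2:**
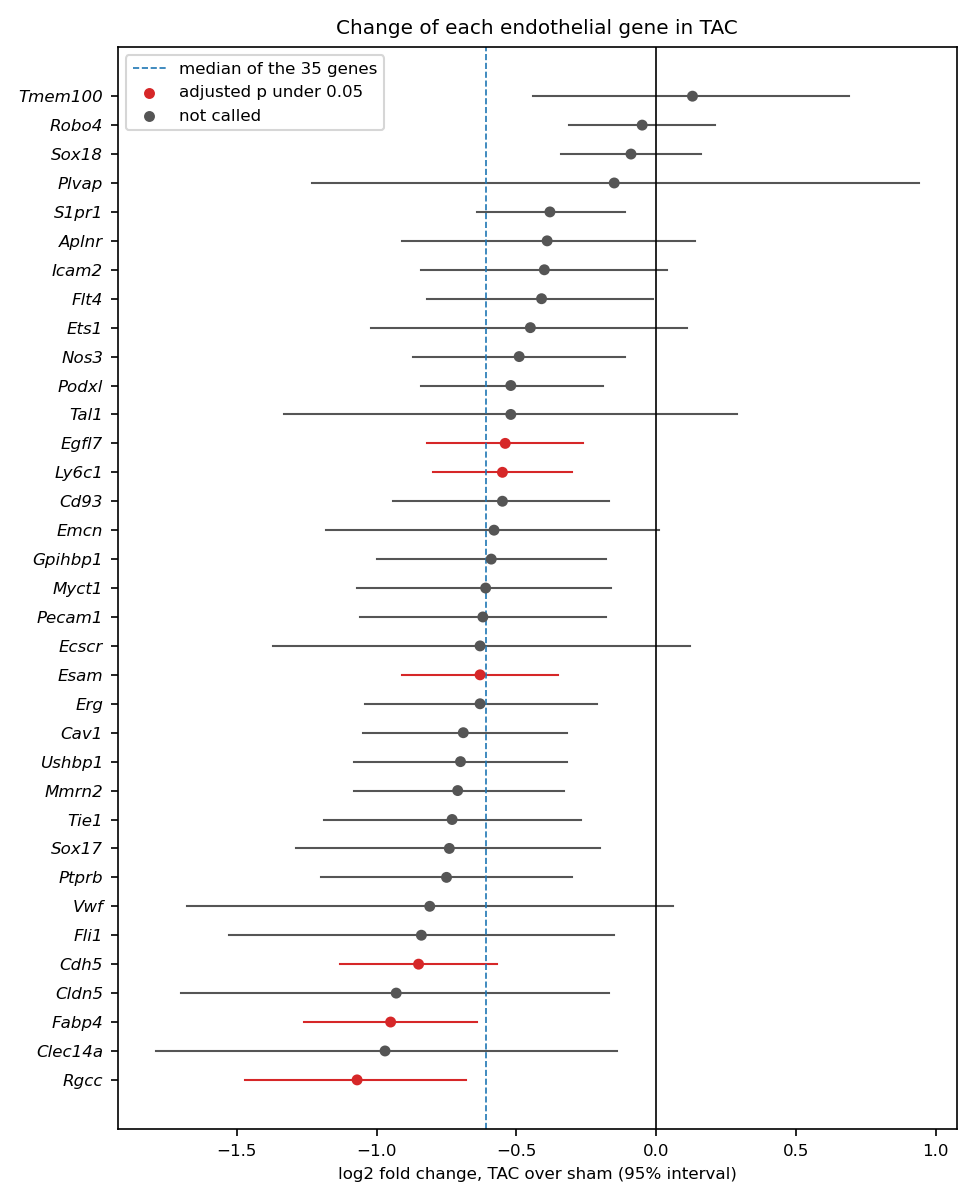
Log2 fold change of each member, TAC over sham, with its 95% interval from edgeR, ordered by size. The 6 called genes are in red, the dashed line is the median of −0.61, and Robo4, Sox18, Plvap and Tmem100 lie nearest to or above 0.

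The libraries of a group were not alike in these genes. TAC 1 was the lowest of the 4 libraries in 30 of 35 members (85.7%), against 31.9% of all genes tested, and sham 1 was the highest in 30 (85.7%), against 27.1%. The median log2 ratio of TAC 2 over TAC 1 was 0.43 and that of sham 1 over sham 2 was 0.24, where all genes gave 0.00 and −0.01. The summed level of the members was 1200 and 1020 CPM in sham and 598 and 814 CPM in TAC. TAC 2 by itself was below both sham libraries in 27 members (77.1%, against 39.9% of all genes), and TAC 1 in 33 (94.3%, against 41.8%). As a share of the summed level, Robo4 took 1.36% and 1.44% in sham and 2.58% and 1.79% in TAC, and Sox18 1.22% and 1.41% in sham and 2.32% and 1.64% in TAC. A gene that stays level gains share when the sum falls. Cdh5 took 9.59% and 9.78% in sham and 8.84% and 8.15% in TAC. The endothelial level thus differed between hearts of a group in most members at once, but the order of the groups held in both TAC libraries for most members. Without TAC 1 the median of the members was −0.41, and without TAC 2 it was −0.88. TAC 1 also had the largest share of counts from the 13 mitochondrial genes, 47.42% against 39.84% to 40.85% in the others, and with totals that left out the mitochondrial genes 6 members were called among 638 calls over all genes, at a median of −0.71 beside −0.11 over all genes tested.

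Rgcc, Cdh5 and Fabp4 were called under each of the 11 alternatives in which single genes were refitted, with log2 fold changes of −1.27 to −1.01 for Rgcc, −1.04 to −0.69 for Cdh5 and −1.18 to −0.74 for Fabp4. Esam and Ly6c1 were called in 10, with the loss in both cases when TAC 1 was left out. Cav1 was called in 9 and Mmrn2 in 8.

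Other endothelial genes, 57 on lists for further endothelial classes, gave a similar description. Of the 53 tested, 49 were lower and 8 were called lower with 0 called higher, beside the 2.43% called lower among all genes, and the median was −0.54. The called genes were the VEGF co-receptor Nrp1 (−0.89), the adrenomedullin receptor component Ramp2 (−0.84), the adhesion receptor Adgrf5 (−0.73) and Rasip1 (−0.61), which acts in vessel lumen formation, all on the general endothelial list. From the capillary list Meox2 (−1.01), which with Tcf15 controls fatty acid uptake, and Cd300lg (−0.88) were called, and from the arterial list the gap junction protein Gja5 (−1.33) and the ligand Efnb2 (−0.81). Medians were −0.53 over 20 genes of the general list, −0.83 over 6 of the capillary list and −0.83 over 8 of the arterial list. The smaller lists gave −0.70 over 3 shear-responsive genes tested, −0.51 over 2 activation genes and −0.36 over 6 lymphatic genes. The values were −0.23 over 2 venous genes and −0.22 over 3 tip cell genes. Counts in a library went down to 2 on the lymphatic list and 9 on the tip cell list. Prox1, at 106 and 92.3 CPM in sham and 63.4 and 82.3 CPM in TAC, stood far above the other lymphatic genes. The endocardial list had a median of 0.03 over 3 genes, where Npr3, the natriuretic peptide clearance receptor also made by other heart cells, was higher in both TAC libraries at 0.64 ± 0.15 (edgeR adjusted p = 0.0577). Differences between these lists were not tested.

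**Figure D3:**
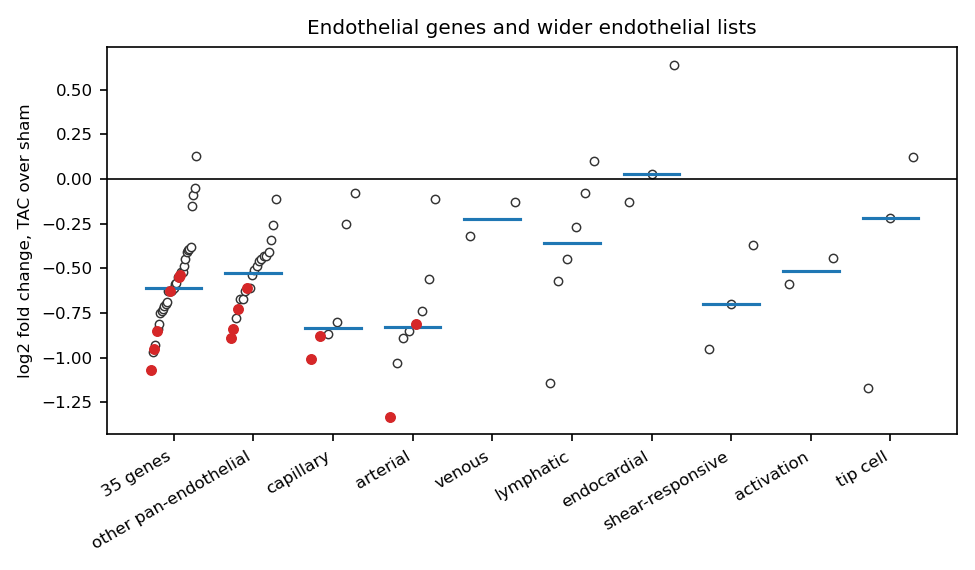
Log2 fold change, TAC over sham, of the 35 members and of the wider endothelial lists, with 1 point per tested gene, called genes in red and the median of each list as a blue bar. The medians of the capillary and arterial lists are both −0.83, and that of the endocardial list is 0.03.

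Genes of other cells that line or surround vessels were measured beside the members, since the libraries were meant to hold cardiomyocytes. For the calls below, 2.43% of all genes tested were called lower. Of 10 fibroblast genes 10 were lower and 4 called lower (Dcn, Lum, Gsn and Dpt), with a median of −0.86, and their summed level was 516 and 357 CPM in sham and 197 and 275 CPM in TAC. Of 10 mural genes, which mark pericytes and smooth muscle, 10 were lower, with a median of −0.86. Of these, 2 were called lower (Pdgfrb and Abcc9, the latter also made by cardiomyocytes). The mural sums were 765, 803, 443 and 584 CPM in the same order. Single genes weighed heavily in these sums. Abcc9 alone gave 380, 406, 279 and 303 CPM of the mural sums, and Gsn 265, 177, 93.8 and 134 CPM of the fibroblast sums. The 10 macrophage genes were lower in 10 cases with 0 called, a median of −0.92 and sums of 133, 67.7, 35.6 and 67.8 CPM. In these 3 lists, as in the members, TAC 1 was lowest. The 10 cardiomyocyte genes had a median of 0.04 and 0 calls, with sums of 73100 to 81600 CPM. They went both ways, with 6 higher and 4 lower and log2 fold changes of −0.38 to 0.41. Both TAC libraries lay above both sham libraries in 3 and below in 3, beside 29.8% and 30.3% of all genes tested. For 5 red blood cell genes the median was 0.07, with sums of 84.9 and 73.7 CPM in sham and 49.9 and 125 CPM in TAC, and of 4 platelet genes Gp9 was at 0 in all 4 libraries and 1 was tested. This was Pf4, at 2.34 and 0.973 CPM in sham and 0.61 and 0.859 CPM in TAC. Its log2 difference of −1.18 was not called (edgeR adjusted p = 0.174). Both TAC libraries lay below both sham libraries, as in 30.3% of all genes tested. Immediate early genes, which rise when cells are stressed or taken from tissue, had 7 of 8 called lower (Fos, Fosb, Jun, Junb, Egr1, Ier2 and Dusp1), with a median of −2.12 and sums of 760, 439, 161 and 162 CPM. The part of these cell types and of the immediate early response in the endothelial differences was not tested.

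**Figure D4:**
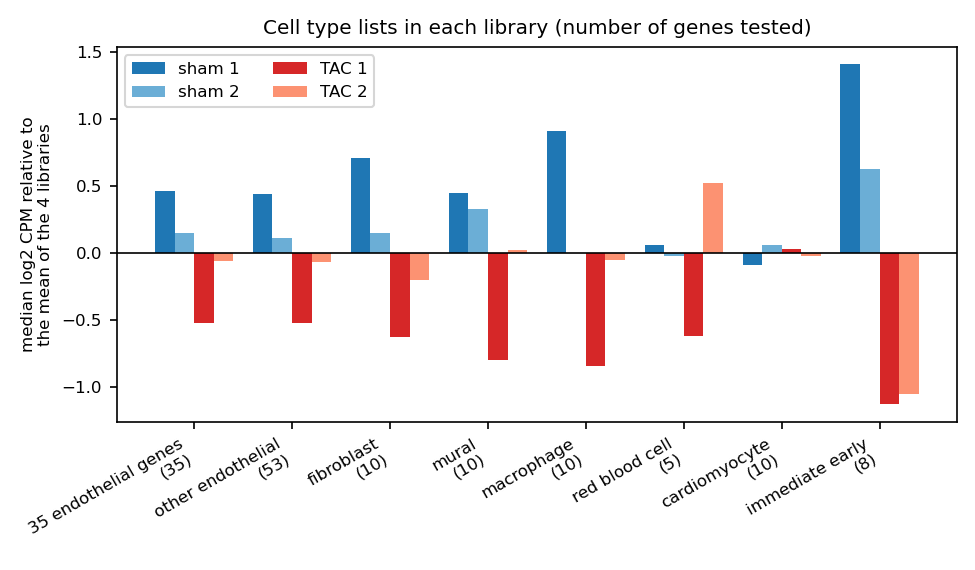
Median log2 CPM of each list in each library, relative to the mean of the 4 libraries, with the number of genes tested in brackets. For the 35 endothelial genes the sham bars are 0.46 and 0.15 and the TAC bars −0.52 and −0.06, replicate 1 first, and the fibroblast list has the same order.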

How the data were processed

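The deposited tables give each gene an expected count, which is an estimate and can be fractional, and an FPKM value, both made by the authors for each library separately. The submitters' processing notes name mm10, Bowtie2 2.2.8 and StringTie 1.3.1 without saying what each did, and the counting program, annotation and strand setting are not given in the sources used. Column headers were shifted against the values, so columns were read by position. Groups and replicate numbers came from the sample titles, and each library is 1 heart. Expected counts were rounded (Nos3 and Ly6c1 had values that were not whole) and tested in R 4.3.3 with edgeR 4.0.16 (filterByExpr, TMM, glmQLFit and glmQLFTest, no block), TAC against sham, with Benjamini-Hochberg adjustment over the 12499 genes tested. Called means an adjusted p under 0.05. CPM used TMM-scaled library sizes. Scripts were tested on simulated data.

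The chi-square of counts per degree of freedom was 8.08 between the sham and 26.71 between the TAC libraries, above sampling noise, so the 4 libraries were kept apart. An exact permutation test of 1 gene with n = 2 a group cannot give less than p = 0.333, so single p-values rest on the spread pooled over genes. Intervals are 95% intervals.

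Members and gene lists were chosen with earlier results of these data known, so lists are described by counts and medians with no test. All 35 members are named by role. Values in every library are given for called members, members at 20 FPKM or more, the 3 highest and 3 lowest log2 fold changes and members whose direction differs from most. Of the wider lists, called genes are named, along with a few genes chosen after their values were seen. Alternatives were total-count scaling, totals without mitochondrial genes, DESeq2 1.42.0, no low-count filter, each library left out, a replicate block, limma 3.58.1 on log2 FPKM with a pseudocount of 1 or 0.1 at a mean of 0.5 FPKM or more, and other thresholds. Gene positions came from GENCODE on GRCm38, the assembly of mm10.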

Additional observations from a re-analysis of the deposited data

How the results depend on the processing

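The 6 endothelial genes called by edgeR, among 626 calls over all genes, became 12 of 897 with DESeq2, 24 of 1676 with no low-count filter, 11 of 422 with limma on log2(FPKM + 1), 18 of 1817 at an adjusted p under 0.1 and 0 of 92 at an adjusted p under 0.01. Leaving out 1 library gave 3 to 24 member calls, among 301 to 1336 over all genes. In these fits a group of 1 library is assumed to vary like the other. A replicate block gave 9 member calls, 5 of them among the 6, of 566 over all genes. The methods speak of pairs of sham and TAC mice without saying which libraries form one, so the numbers were not taken as pairing. Deviations of same-numbered libraries had a correlation of −0.242, of which the crossed value is the mirror image with 2 libraries a group, so it does not settle the pairing. The crossed pairing, added after seeing the data, gave 26 member calls and 2131 calls over all genes. No member was called higher in any of these settings. The median log2 fold change of the members ranged from −0.88 to −0.41 and kept its sign in every setting run. Among results for single genes and settings, 307 stayed on their side of the threshold, 69 passed it newly, 5 no longer passed it and 4 had no value (Plvap and Tal1, by DESeq2 or the FPKM filter). Tmem100 (−0.25 to 0.44), Plvap (−0.61 to 0.59) and Robo4 (−0.24 to 0.03) changed sign without being called. The cause of these shifts was not tested. Tal1 and Plvap had the fewest counts of the members, 31 to 79 per library.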
